A study of Arabidopsis thaliana with 30 samples.

Results

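RNA from the petiole region of excised Arabidopsis thaliana leaves was compared between eur1-11 and WT over all sampling times after excision. All 12 eur1-11 libraries of 24, 48, 72 and 96 h were set against the 12 WT libraries of the same times, which is 24 of the 30 libraries of the series, and the 6 libraries taken at 0 h were left out of the comparison. WT was the Col line carrying ORE1::LUC, a reporter in which the promoter of the senescence gene ORE1 drives firefly luciferase. The eur1-11 line was obtained from that reporter line with the mutagen EMS and carries a nonsense change in EAR1 (AT5G22090), so both genotypes hold the reporter and eur1-11 represents a single mutant line. Rosette leaves of soil-grown plants were detached at the petiole and kept in white light without a dark period, afloat on buffer, and each genotype had 3 numbered replicates at each time. The labels do not say that replicates were separate plants or harvests, so the spread behind each p-value is that between these libraries and may be technical. A library of one genotype was always compared with the library of the other that had the same time and number, which gave 12 pairs.

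EAR1 acts as a negative regulator of signalling by abscisic acid (ABA), the hormone of drought and dormancy. It restrains the response by keeping the PP2C phosphatases active, which in turn hold back the SnRK2 kinases. A detached leaf also responds to the cut with jasmonate, auxin and sugar signals, and under light it can form new roots at the petiole. The study asked how EAR1 relates to this regeneration.

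Gene totals ranged from 22482318 to 41873931 counts over the 24 libraries, and 18.71 to 46.22% of them fell on chloroplast genes. Replicates 1 and 2 of a group lay closer together (median coefficient of variation across genes 0.0444 to 0.0538) than either did to replicate 3 (0.0687 to 0.162). Reads of the 18S ribosomal RNA locus AT3G41768, which ranged from 88.3 to 7060 CPM (counts scaled to a common library total, here with no TMM factor) in WT with a median of 673, ranged from 23 to 650 CPM in eur1-11 with a median of 87.9. They were lower in eur1-11 in 10 of 12 pairs, and the part of this difference in the results was not tested.

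Of 21228 genes tested, 2711 (12.8%) passed an adjusted p of 0.05 in edgeR's quasi-likelihood test with a term for each pair. Levels were higher in eur1-11 for 1469 of them (6.92% of genes tested) and lower for 1242 (5.85%). Without the pair term, 529 of the 21228 were called higher and 334 lower, the background for counts below under that setting. Most differences were small. The median log2 fold change was 0.43 (1.34-fold) among higher genes and -0.26 (1.19-fold) among lower genes, and 66.6% of called genes differed by less than 0.5. A log2 fold change of at least 1 in either direction was found for 347 called genes, of which 273 were higher in eur1-11 and 74 were lower. The same direction in 12 of 12 pairs was found for 373 genes higher in eur1-11 (1.76% of genes tested) and for 322 lower (1.52%). The 12 eur1-11 libraries lay entirely above the 12 WT libraries for 44 genes (0.207%) and entirely below for 6 (0.0283%).

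**Figure D1:**
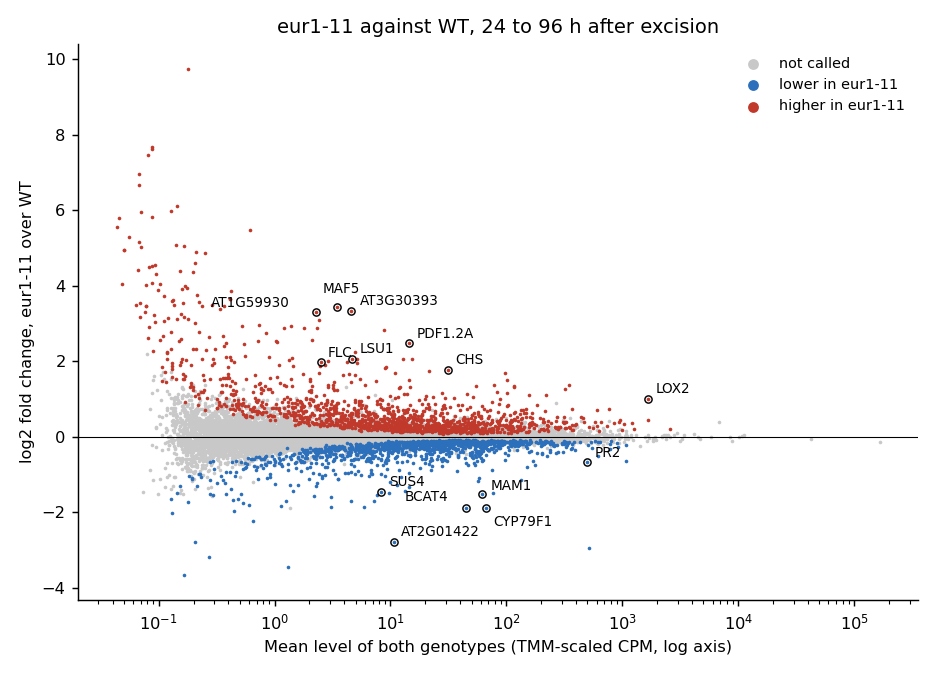
Each point is 1 of 21228 genes, with its mean level in both genotypes on a log axis (TMM-scaled CPM) against the log2 fold change of eur1-11 over WT. Red points are the 1469 genes called higher in eur1-11, blue points the 1242 called lower, and circled genes are described in the text. The highest ratios lie among genes of low level.

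Some of the sequences next to the genes that differed are shown first, because the results below return to them. The gap between PIN4 and AT2G01422 is given whole, since these neighbours start in opposite directions from it and moved in opposite directions. AT3G30393, which RefSeq annotates as a pseudogene, is shown as the only such locus among the 8 highest fold changes with all 12 pairs in the same direction and 5 CPM or more in the higher genotype. For UGT79B1, DFR and JAZ8 the 250 bases before the gene start hold the G-box CACGTG, a site known to be bound by bHLH factors such as MYC2, and for SDI1 they hold GAGAC, the core of a sulfur-response element. Capitals mark the motif on either strand, and all sequences are from the TAIR10.1 assembly, read 5′ to 3′.
PIN4 to AT2G01422, chr2:183765-183939, plus strand: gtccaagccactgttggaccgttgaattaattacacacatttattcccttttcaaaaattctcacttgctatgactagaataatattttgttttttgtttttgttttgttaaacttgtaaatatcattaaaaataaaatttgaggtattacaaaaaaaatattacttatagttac
AT3G30393, chr3:11998920-11999069, plus strand: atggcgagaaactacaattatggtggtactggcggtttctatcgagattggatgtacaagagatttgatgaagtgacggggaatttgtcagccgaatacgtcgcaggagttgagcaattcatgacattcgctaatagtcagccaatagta
UGT79B1, chr5:21938397-21938646, minus strand: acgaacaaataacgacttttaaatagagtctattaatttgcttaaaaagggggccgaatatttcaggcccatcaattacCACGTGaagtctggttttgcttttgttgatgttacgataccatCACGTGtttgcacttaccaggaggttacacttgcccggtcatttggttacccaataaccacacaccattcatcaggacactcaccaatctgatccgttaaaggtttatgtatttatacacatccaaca
DFR, chr5:17166033-17166282, minus strand: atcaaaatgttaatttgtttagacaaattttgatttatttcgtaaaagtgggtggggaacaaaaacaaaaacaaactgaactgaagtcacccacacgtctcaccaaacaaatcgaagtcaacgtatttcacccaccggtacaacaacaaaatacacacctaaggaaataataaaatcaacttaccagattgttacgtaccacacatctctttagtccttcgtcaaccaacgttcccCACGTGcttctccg
JAZ8, chr1:10596102-10596351, plus strand: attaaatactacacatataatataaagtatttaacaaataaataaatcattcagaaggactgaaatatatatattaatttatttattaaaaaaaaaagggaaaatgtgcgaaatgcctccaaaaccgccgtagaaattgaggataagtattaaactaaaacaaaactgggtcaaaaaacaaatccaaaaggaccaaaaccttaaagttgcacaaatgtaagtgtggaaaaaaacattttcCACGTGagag
SDI1, chr5:19807854-19808103, minus strand: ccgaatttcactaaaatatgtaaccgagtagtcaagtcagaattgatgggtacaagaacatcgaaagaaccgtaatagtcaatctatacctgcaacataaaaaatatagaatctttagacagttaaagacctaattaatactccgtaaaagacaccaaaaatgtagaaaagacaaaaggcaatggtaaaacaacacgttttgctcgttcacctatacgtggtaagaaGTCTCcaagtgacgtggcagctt

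Across 20980 nuclear genes tested, windows of this length held CACGTG in 7.1% and GAGAC in 25.4%, searched on both strands. Among genes called higher the shares were 8.48 and 24.8%, and among genes called lower 7.36 and 24.9%. CACGTG was found in 4 of 15 late anthocyanin genes (26.7%), 5 of 30 jasmonate genes (16.7%), 1 of 14 sulfur shortage genes (7.14%) and 1 of 20 aliphatic glucosinolate genes (5%). Of those with CACGTG, the late anthocyanin genes PAP2 and MYB114 and the jasmonate genes JAZ2, JAZ3 and JAZ7 were not called. GAGAC was found in 7 of the late anthocyanin genes (46.7%), 11 of the jasmonate genes (36.7%), 4 of the sulfur shortage genes (28.6%) and 3 of the aliphatic glucosinolate genes (15%), so its share was not highest in the sulfur list. These matches describe the letters only.

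EAR1 itself was lower in eur1-11. Its level ranged from 198 to 390 CPM with a median of 287 in eur1-11 and from 258 to 457 CPM with a median of 331 in WT. The ranges overlapped, but eur1-11 was the lower member in 12 of 12 pairs (log2 fold change -0.26 ± 0.05, SE; edgeR, adjusted p = 0.0037). EAR1 shares part of its span with AT5G03385 on the same strand, and a nonsense change cannot be read from counts. Of the other genes of core ABA signalling, 2 were higher and 3 lower among 24 tested, where 6.92 and 5.85% of all genes tested were. Counts this small do not set the list apart. Receptor genes PYL1 and PYL6 rose and the receptor gene PYL8, the phosphatase gene PP2CA and the transcription factor gene ABF2 fell, by no more than 0.68 on the log2 scale in size. The calls of PYL1 and PP2CA were lost without the pair term. ABI1, ABI2 and HAB1, phosphatase genes of the same clade as PP2CA, had log2 fold changes of -0.01, -0.01 and -0.09 and did not pass.

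Genes that respond to ABA and cold were split. Of 24 tested, 4 were higher and 6 lower, with a median of -0.06, and without the pair term 2 were higher and 3 lower. COR15A, which encodes a chloroplast protein that protects membranes during freezing, stood at a median of 2.02 CPM (0.429 to 6.36) in eur1-11 and 0.735 CPM (0.146 to 1.66) in WT, and its log2 fold change was 1.54 ± 0.25 (edgeR, adjusted p = 0.00094). CBF1, a transcription factor gene that acts upstream of COR genes in the cold, had a median of 0.956 CPM (0.356 to 1.69) in eur1-11 and 2.25 CPM (1.23 to 4.81) in WT. CBF1 was lower in 12 of 12 pairs, by 1.29 ± 0.14 on the log2 scale (log2 fold change -1.29; edgeR, adjusted p = 2.3e-05). COR47 and COR15A thus differed in opposite directions, with COR47 at -0.39 ± 0.06 (edgeR, adjusted p = 0.00042). The known ABA markers RD29A, RD29B and RAB18 had log2 fold changes of -0.07, -0.12 and 0.23 and did not pass.

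The group with the largest share of lower genes was that of aliphatic glucosinolates, sulfur-rich defence compounds that Arabidopsis makes from methionine. Of 20 members tested, 17 were lower in eur1-11 and none was higher, with a median log2 fold change of -0.89 against 0.00 over all genes tested. BCAT4, which starts the lengthening of the methionine side chain, ranged from 6.96 to 37 CPM in eur1-11 with a median of 26 and from 15.9 to 150 CPM in WT with a median of 102. It was lower in every pair (log2 fold change -1.90 ± 0.21; edgeR, adjusted p = 2.8e-05), and the ranges overlapped only through the WT libraries of 24 and 48 h with low levels. MAM1, the next enzyme of the elongation cycle, had medians of 35.9 CPM in eur1-11 (14.1 to 66.3) and 117 CPM in WT (24.2 to 180), and the log2 fold change was -1.51 ± 0.20 (edgeR, adjusted p = 0.00013). IPMI1 and IPMI2, isomerase subunits of the same cycle, stood at -1.33 and -1.49.

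The cytochrome P450 gene CYP79F1, which commits the elongated methionine to the glucosinolate core, fell to the same degree as BCAT4. Its median was 28.6 CPM (12.5 to 65.6) in eur1-11 and 140 CPM (27.8 to 217) in WT, and the log2 fold change was -1.90 ± 0.22 (edgeR, adjusted p = 4.3e-05). Its close copy CYP79F2 was at -1.19 ± 0.13 (edgeR, adjusted p = 2.4e-05). Among the MYB regulators, MYB29 and MYB76 fell with log2 fold changes of -0.89 and -1.80, whereas MYB28, known as the main activator of the pathway, stood at 0.01 ± 0.06 and did not pass (edgeR, adjusted p = 0.95). AK3, an aspartate kinase gene of the route to methionine that was not on the list, also fell in every pair (log2 fold change -1.18 ± 0.16; edgeR, adjusted p = 0.0002). The glucosinolate transporters GTR1 and GTR2 had log2 fold changes of 0.06 and -0.16 and did not pass.

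The indole glucosinolates, made from tryptophan, did not move this way. Of 18 genes tested in this group, which includes camalexin synthesis, 5 were higher and 1 was lower, with a median of 0.24, but with replicates 1 and 2 summed or without the pair term 1 was higher and none was lower. IGMT1, a methyltransferase that modifies indole glucosinolates, ranged from 7.39 to 44.7 CPM with a median of 25.4 in eur1-11 and from 2.61 to 26.7 CPM with a median of 13.8 in WT. It was higher in 12 of 12 pairs (log2 fold change 0.86 ± 0.15; edgeR, adjusted p = 0.0014), and 10.4% of its 50-base stretches also occur in other IGMT genes.

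**Figure D2:**
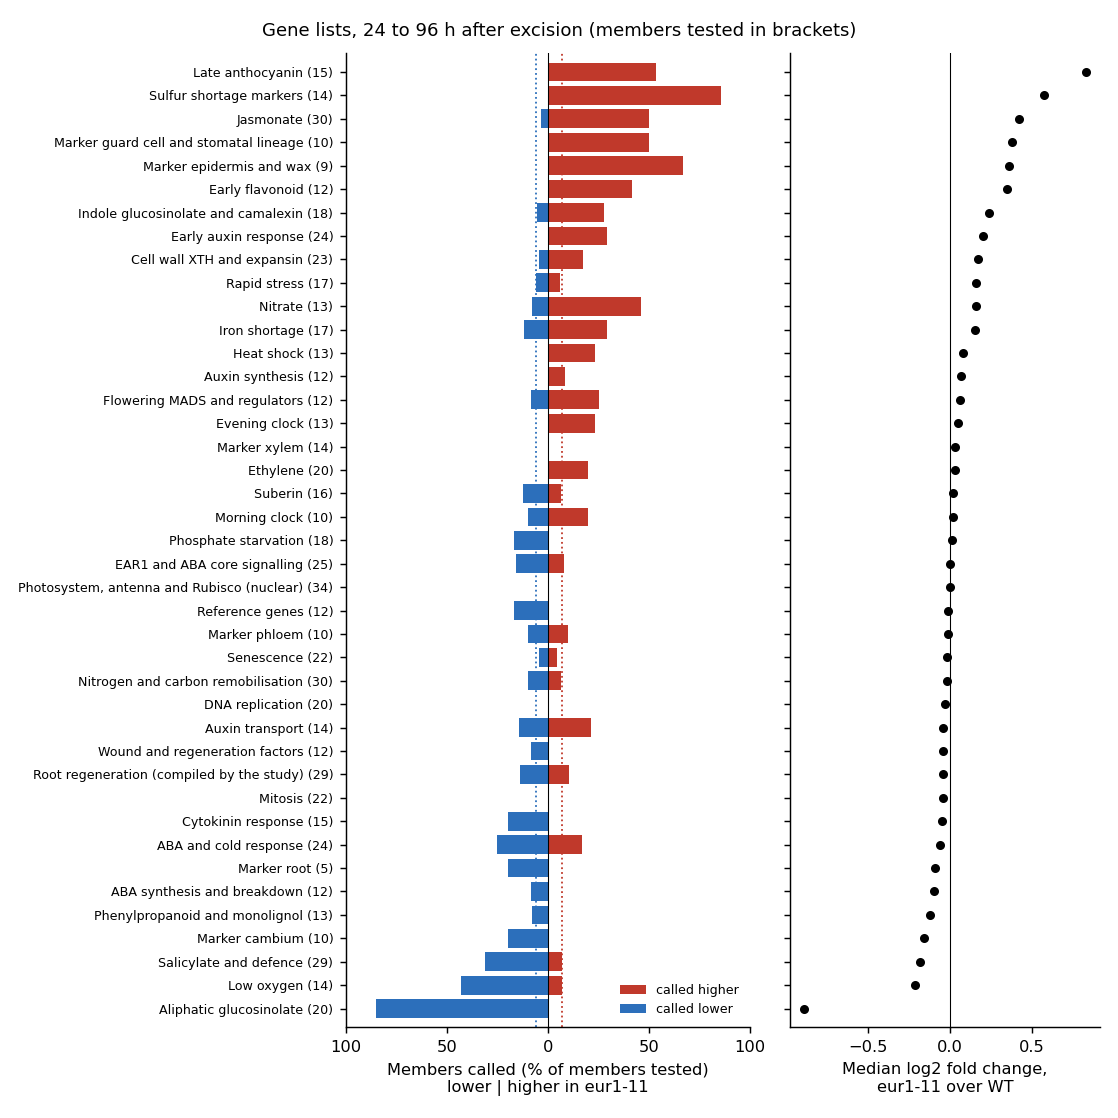
Bars give the percentage of members tested that were called higher (red, to the right) or lower (blue, to the left) in eur1-11 for each of 41 gene lists, with dotted lines at the share over all genes tested. Points give the median log2 fold change of each list, with late anthocyanin genes at 0.83 and aliphatic glucosinolate genes at -0.89 at the ends.

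Genes that rise when plants lack sulfur were higher in eur1-11. Of 14 tested, 12 were higher and none was lower, with a median log2 fold change of 0.57. LSU1, a small protein gene of the low-sulfur response, ranged from 4.74 to 20.9 CPM in eur1-11 with a median of 6.3 and from 0.947 to 5.32 CPM in WT with a median of 1.77. The ranges met only at 96 h in WT, and the log2 fold change was 2.07 ± 0.09, higher in 12 of 12 pairs (edgeR, adjusted p = 1.5e-09). SDI1, whose protein is known to restrain the MYB factors of aliphatic glucosinolate synthesis, had a median of 12.6 CPM (6.69 to 38.1) in eur1-11 and 3.41 CPM (1.12 to 13.5) in WT. Its log2 fold change was 1.82 ± 0.13 (edgeR, adjusted p = 3.8e-07).

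LSU3, the neighbour of LSU1 on chromosome 3, stood at 1.25 ± 0.10 (edgeR, adjusted p = 1.4e-06) and LSU2 on chromosome 5 at 0.60 ± 0.06 (edgeR, adjusted p = 5.4e-06). GGCT2;1, which breaks down glutathione, was at 1.89 and BGLU28, a glucosidase that can break down glucosinolates, at 1.47. The sulfate transporter genes SULTR1;2 and SULTR4;2 and the reductase genes APR1, APR2 and APR3 rose by 0.30 to 0.66 on the log2 scale. LSU4 and SULTR2;1, at -0.22 and 0.03, did not pass. With replicates 1 and 2 summed into 1 library, 7 of the 14 members were called higher in place of 12 (background 3.52%), and without the pair term 6 were.

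Late genes of anthocyanin synthesis, the purple pigments of stressed leaves, had the highest median of all 41 lists, 0.83. Of 15 tested, 8 were higher and none was lower, and all 15 log2 fold changes lay above 0. LDOX, which encodes an enzyme that forms the coloured core, ranged from 2.58 to 49 CPM in eur1-11 with a median of 26.8 and from 0.263 to 21.1 CPM in WT with a median of 4.27. It was higher in 11 of 12 pairs (log2 fold change 2.07 ± 0.30; edgeR, adjusted p = 0.00028). UGT79B1, a glycosyltransferase gene, had medians of 9.36 CPM in eur1-11 (1.33 to 18.9) and 1.15 CPM in WT (0.117 to 7.97), and the log2 fold change was 1.95 ± 0.28 (edgeR, adjusted p = 0.0003).

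The anthocyanin genes spread widely among libraries of 1 genotype, and replicate 3 was the lowest LDOX library of eur1-11 at each time from 24 to 96 h. DFR, GSTF12 and 5MAT, which make, move and decorate the pigment, stood at 1.73, 1.85 and 1.87. Of the regulators, TT8 (bHLH) and MYB113 were called, at 1.90 and 1.53, as was MYBL2, a known repressor of the pathway, at 0.83. PAP1 and PAP2, the other MYB activators, had log2 fold changes of 0.42 and 0.48 and did not pass. In the early flavonoid steps, 5 of 12 genes were higher and none was lower, led by CHS at 1.78 ± 0.22 (edgeR, adjusted p = 6.6e-05), higher in 12 of 12 pairs. The CHS call and all other early flavonoid calls were lost without the pair term.

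Jasmonate genes were higher too. Of 30 tested, 15 were higher and 1, JAR1, was lower, with a median of 0.42. LOX2, the chloroplast lipoxygenase of jasmonate synthesis, ranged from 534 to 4080 CPM in eur1-11 with a median of 1840 and from 228 to 4080 CPM in WT with a median of 759. The ranges overlapped throughout the upper part, and LOX2 was higher in 11 of 12 pairs (log2 fold change 1.01 ± 0.15; edgeR, adjusted p = 0.0005). The cyclase genes AOC1 and AOC2 lay at 0.98 and 0.99.

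Known targets of the hormone were higher as well. VSP2, a vegetative storage protein gene of the wound branch, had a median of 64.4 CPM in eur1-11 (10.5 to 515) and 13.7 CPM in WT (2.51 to 401). It was higher in 12 of 12 pairs (log2 fold change 1.5 ± 0.26; edgeR, adjusted p = 0.0015). A set of 5 repressor genes of the JAZ family rose, between 0.44 for JAZ1 and 0.85 for JAZ8, while MYC2, the activator that they restrain, stood at 0.08 and did not pass. The defensin genes PDF1.2A, PDF1.2b and PDF1.2c, known outputs of jasmonate together with ethylene, were at 2.48 ± 0.38, 3.09 ± 0.47 and 2.82 ± 0.49 (edgeR, adjusted p = 0.00051, 0.00044 and 0.0015). The levels of PDF1.2A ran from 0.244 to 107 CPM in eur1-11 and from 0.0585 to 33.8 CPM in WT, so that the ranges overlapped although all 12 pairs had the same direction. The ethylene response gene ERF1 stood at 0.83 ± 0.14 (edgeR, adjusted p = 0.0011). PDF1.2c was not called without replicate 2, and ERF1 was not either. With replicates 1 and 2 summed, 8 of the 30 jasmonate genes were called higher, and without the pair term 8 were as well.

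The median of the jasmonate list was 0.72 at 24 h, 0.65 at 48 h, 0.23 at 72 h and 0.00 at 96 h. Over all times after excision it was 0.58 without replicate 3 and 0.14 in the pairs numbered 3. No list member was called in the test of change over time.

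**Figure D3:**
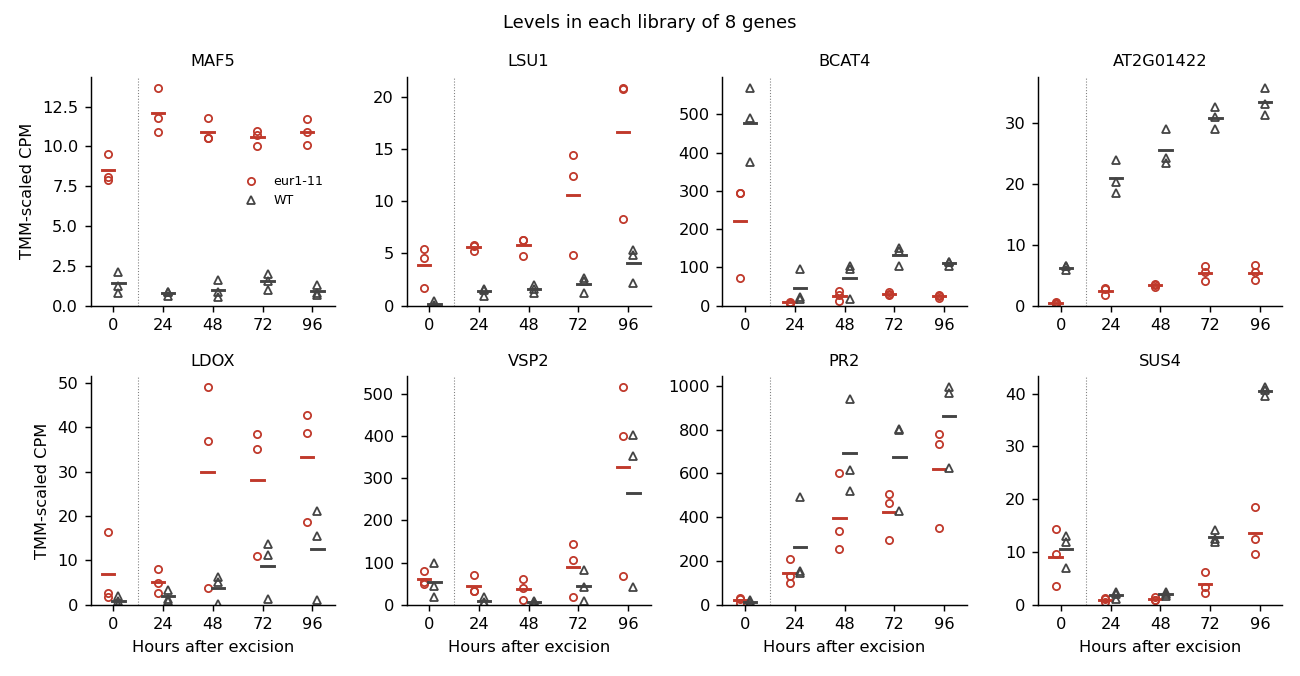
Points are single libraries (3 per genotype and time, circles for eur1-11 and triangles for WT) and bars their means, in TMM-scaled CPM on an axis from 0, with 0 h to the left of the dotted line. MAF5 and AT2G01422 separate the genotypes at every time, whereas libraries of LDOX, VSP2 and PR2 overlap.

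Genes of salicylate and defence were more often lower. Of 29 tested, 9 were lower and 2 higher (WRKY18 and WRKY33), with a median of -0.18. PR2, a glucanase gene used as a marker of salicylate, ranged from 99.1 to 779 CPM in eur1-11 with a median of 345 and from 145 to 994 CPM in WT with a median of 622. The ranges overlapped and PR2 was lower in 12 of 12 pairs (log2 fold change -0.68 ± 0.09; edgeR, adjusted p = 8.9e-05). DMR6, which encodes an enzyme that breaks down salicylate, stood at -0.60 ± 0.07 (edgeR, adjusted p = 6.1e-05) and PR1 at -0.65. ICS1, the main gene of salicylate synthesis, and EDS1 and PAD4, its upstream partners, had log2 fold changes of -0.30, -0.25 and -0.19, all called. At 0 h the median of the list was 0.22, and for 8 of its members the difference after excision was lower than at 0 h by the test against 0 h. Without the pair term, none of the 29 was called, where 334 of all 21228 genes were called lower and 529 higher.

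Of 14 genes induced by low oxygen, 6 were lower and 1 was higher. SUS4, a sucrose synthase, ranged from 0.488 to 18.5 CPM in eur1-11 with a median of 1.88 and from 1.06 to 41.2 CPM in WT with a median of 7.22. It was lower in every pair (log2 fold change -1.46 ± 0.14; edgeR, adjusted p = 7.9e-06), and at 96 h the 3 WT libraries lay above all eur1-11 libraries. SAD6, a fatty acid desaturase, and ADH1, alcohol dehydrogenase, stood at -1.71 ± 0.15 and -0.63 ± 0.08 (edgeR, adjusted p = 1.1e-05 and 6.9e-05). The pyruvate decarboxylase genes parted, with PDC1 at -1.43 ± 0.26 (edgeR, adjusted p = 0.0021) and PDC2 at 0.62 ± 0.07 (edgeR, adjusted p = 4.4e-05). The medians of the list were 0.11, -0.13, -0.14 and -0.67 from 24 to 96 h.

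Among early auxin response genes, 7 of 24 were higher and none was lower, with a median of 0.20. IAA2, a repressor gene induced by auxin, ranged from 72.1 to 173 CPM in eur1-11 with a median of 118 and from 55.3 to 154 CPM in WT with a median of 91.3. It was higher in 12 of 12 pairs, by 0.30 ± 0.05 (edgeR, adjusted p = 0.0016). IAA1, IAA14, IAA17, SAUR15, SAUR24 and SAUR63 were the other members called, between 0.19 and 0.87. None of the 7 was called without the pair term. The median of the list was 0.06, 0.06, 0.40 and 0.53 from 24 to 96 h and -0.23 at 0 h. YUC8 and YUC9, enzymes of auxin synthesis, had log2 fold changes of 0.05 ± 0.18 and -0.49 ± 0.29 and did not pass, and of 12 synthesis genes only ASA1 was called, at 0.31.

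PIN4, an auxin efflux carrier, was higher at every time after excision, with a log2 fold change of 0.39 ± 0.03 and all 12 pairs in this direction (edgeR, adjusted p = 2.5e-06). Its levels ran from 26.6 to 45.8 CPM in eur1-11 and from 20.9 to 34.3 CPM in WT, and at 0 h the difference was -0.09 ± 0.07 (edgeR, adjusted p = 0.47). The non-coding RNA locus AT2G01422 starts 175 bases away on the opposite strand, across the gap printed above. It held 1.66 to 6.59 CPM in eur1-11 with a median of 3.81 and 18.5 to 35.7 CPM in WT with a median of 29. The genotypes did not overlap, and the difference of -2.79 ± 0.11 on the log2 scale (edgeR, adjusted p = 8.4e-10) had the smallest p of the genes called lower. It was already -3.81 ± 0.34 at 0 h (edgeR, adjusted p = 4.6e-06).

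Of the 40 root regeneration genes that the study compiled from earlier literature, 29 were tested. Of these, 3 were higher and 4 lower with a median of -0.04, where 6.92 and 5.85% of all genes tested were. Such small counts do not set this list apart either. Without the pair term 1 was higher and none was lower. WOX11, the homeobox gene of root founder cells, ranged from 0.812 to 4.38 CPM in eur1-11 with a median of 2.2 and from 1.04 to 7.19 CPM in WT with a median of 2.8. Its log2 fold change of -0.32 ± 0.12 did not pass (edgeR, adjusted p = 0.092). NAC1, a root-forming transcription factor gene of excised leaves, was lower in every pair, at -0.27 ± 0.05 (edgeR, adjusted p = 0.0013). ABCB19, BOP2 and IAA14 were the higher members, at 0.38, 0.23 and 0.47. PIN2 had 40 counts over the eur1-11 libraries and 28 over the WT libraries, too few to be tested. ORE1, whose promoter drives the reporter, stood at -0.02 ± 0.09 (edgeR, adjusted p = 0.94).

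None of 34 photosystem, antenna and Rubisco genes, 20 DNA replication genes, 22 mitosis genes and 14 xylem genes was called by edgeR, with 1, 3, 0 and 3 at an unadjusted p under 0.05, and DESeq2 called none of them. The pooled median of the photosystem list, 0.00, held medians of 0.07, 0.28, 0.01 and -0.31 at 24, 48, 72 and 96 h, and it was -0.21 without replicate 3 and 0.42 in the pairs numbered 3. The mitosis list had medians of 0.03, 0.25, -0.26 and -0.22 at the same times. Without replicate 3, 2 DNA replication genes and 1 xylem gene were called higher, where 1497 of all 21215 genes tested were. Markers of epidermis and wax were higher in 6 of 9 tested, led by LTPG1 at 0.66 ± 0.11 (edgeR, adjusted p = 0.001), and none was lower. The summed level of the 9 epidermis markers tested ran from 233 to 456 CPM in eur1-11 (median 317) and from 164 to 421 CPM in WT (median 268). Markers of guard cells were higher in 5 of 10, with HT1, a kinase gene of the stomatal response to carbon dioxide, at 0.77 ± 0.10 (edgeR, adjusted p = 0.00014), with sums of 38.6 to 61.4 CPM against 32.9 to 45.5 CPM. Called higher were 2 epidermis and 2 guard cell markers without replicate 3, 3 and 3 with replicates 1 and 2 summed, and 2 and 2 without the pair term. The median of the guard cell list was 0.38, and 0.14 without replicate 3. Both sums were higher in 11 of 12 pairs, whereas those of phloem and xylem markers were higher in 3 and 6. Of the stomatal lineage markers, SPCH, MUTE, EPF1 and EPF2 were too low to test, as were the epidermis markers PDF1, CER1 and CER4. More cells of a type and more RNA per cell cannot be told apart in bulk samples, and the part of epidermal tissue in the results above was not tested.

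A small set of genes differed steadily, with little spread between times. MAF5, a MADS-box gene related to the floral repressor FLC, ranged from 10 to 13.7 CPM in eur1-11 with a median of 10.9 and from 0.538 to 1.99 CPM in WT with a median of 0.87. Every eur1-11 library lay above every WT library (log2 fold change 3.43 ± 0.14; edgeR, adjusted p = 1.4e-09), and the difference was 2.70 at 0 h (edgeR, adjusted p = 7.2e-05). MAF4, the next gene on chromosome 5 (MAF4 ends at 25996202 and MAF5 starts at 25997504, TAIR10.1), was also without overlap, at 1.3 ± 0.11 (edgeR, adjusted p = 2.5e-06), while MAF2 and MAF3 had log2 fold changes of -0.03 and 0.05 and did not pass. FLC was higher by 1.98 ± 0.14 (edgeR, adjusted p = 3.3e-07), and its span overlaps AT5G01675. SOC1, which promotes flowering and is repressed by FLC, was lower in 12 of 12 pairs, at -0.70 ± 0.08 (edgeR, adjusted p = 3.2e-05).

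AT1G59930, annotated as a MADS-box family protein, AT5G41830, an RNI-like protein, and the non-coding AT4G04223 also showed no overlap, at 3.3 ± 0.15, 2.89 ± 0.14 and 2.24 ± 0.12 (edgeR, adjusted p = 1.5e-09, 2.6e-09 and 1.9e-08). For AT1G59930, 49.4% of 50-base stretches occur elsewhere in the genome, in the neighbouring AT1G59920, and for AT4G04223 71.5%, so reads could have been split. AT3G05170, a phosphoglycerate mutase family gene on chromosome 3, was singled out after its values were seen. It had 0 counts over the 12 WT libraries and 1369 over the eur1-11 libraries (2.07 to 4 CPM), at least 396-fold higher when WT is set to 3 counts over the group. At 0 h it had 2 counts in WT and 154 in eur1-11. The adjacent genes AT3G55900 (F-box) and AT3G55910 (an ARF GTPase-activating protein) likewise had 0 counts in WT and 337 and 296 in eur1-11, at least 97.4-fold and 85.6-fold higher by the same floor, which covers counting error only.

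Loci that RefSeq annotates as pseudogenes stood out among gene classes. Of 276 tested, 99 (35.9%) were higher and 18 (6.52%) lower, against 6.57 and 5.83% of protein-coding genes, and 81 of the 99 had a log2 fold change of at least 1. A locus silent in WT could be tested only because it was present in eur1-11, so these counts are a description. Of 180 loci in the separate RefSeq class of transcribed pseudogenes, 18 were higher and 14 lower. Over all 3911 pseudogenes of the count table with no filter, 713 had counts in eur1-11 alone and 266 in WT alone. The same was not counted for other gene classes, so whether such a split is particular to pseudogenes is not known. The eur1-11 libraries were deeper, with a median of 36698544 gene counts against 32107863 in WT, which favours detection in eur1-11, and the part of depth in these numbers was not tested. Of 500 loci with at least 24 counts over the 24 libraries, 42% had a mean CPM at least 2-fold higher in eur1-11 and 3.2% at least 2-fold lower, against 1.9 and 0.872% of nuclear protein-coding genes with the same minimum. A locus silent in 1 genotype met this minimum only through the other genotype, and the 2 classes were not matched for level. These shares are a description as well.

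AT3G30393, on chromosome 3, ranged from 3.31 to 28.8 CPM in eur1-11 with a median of 11.1 and from 0.0756 to 2.73 CPM in WT with a median of 1.24, without overlap (log2 fold change 3.34 ± 0.13; edgeR, adjusted p = 1.1e-09). AT4G07850 and AT4G09425 were at 5.48 and 2.87, and AT3G60170 and AT4G16870 were lower without overlap, at -3.44 and -1.84. Of the 50-base stretches of AT3G30393 46.6% and of AT4G07850 51.2% occur elsewhere in the genome, and the median was 8.57% over the 99 higher pseudogenes, 9.38% over the 18 lower ones and 0.259% over those not called, so reads may belong to copies. The pseudogenes called higher lay on all 5 chromosomes, from 13 of 52 tested on chromosome 1 to 26 of 63 tested on chromosome 3.

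Summed over the 3869 pseudogenes with a mean under 5 CPM, the level after excision ranged from 191 to 421 CPM of total counts in eur1-11, with a median of 310, and from 169 to 284 CPM in WT, with a median of 242. The sum was higher in eur1-11 in 12 of 12 pairs. The share of chloroplast counts, which is part of this total, was lower in eur1-11 in 9 of 12 pairs, and its part in the sum was not tested. That share also fell with time, in WT from 61.24 to 62.89% at 0 h down to 21.84 to 23.77% at 96 h. Sums of different times therefore rest on totals with unlike chloroplast shares. At 0 h the 3 eur1-11 libraries held 143 to 170 CPM and the 3 WT libraries 145 to 167 CPM, which overlapped.

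**Figure D4:**
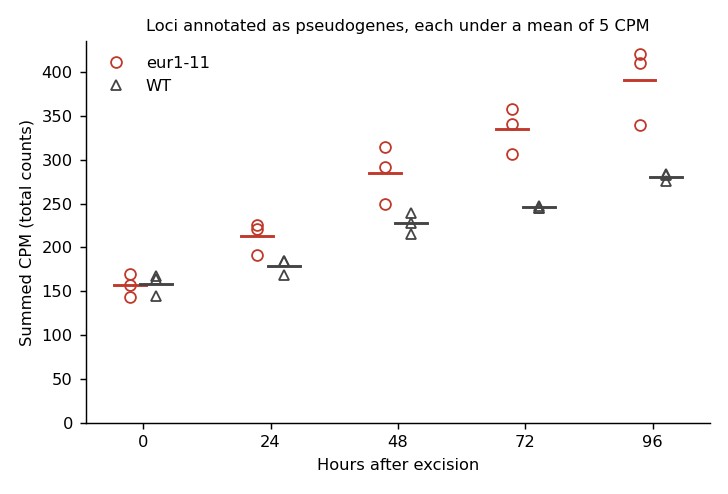
Points are single libraries and bars means of 3, giving the summed CPM (of total counts) of 3869 loci annotated as pseudogenes by hours after excision. The genotypes overlap at 0 h (143 to 170 against 145 to 167 CPM), and after excision eur1-11 is higher in 12 of 12 pairs. The chloroplast share of the total counts fell with time, so levels of different times are not on equal terms.

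Further lists gave small numbers of calls, where 6.92 and 5.85% of all genes tested were higher and lower. Without the pair term, 529 and 334 of all 21228 genes were. Nitrate genes were higher in 6 of 13 and lower in 1, with NRT1.1, a nitrate transporter and sensor, at 0.40 ± 0.08 and NRT1.5, a root-to-shoot transporter, at -0.59 ± 0.09 (edgeR, adjusted p = 0.0048 and 0.00047), but with replicates 1 and 2 summed 1 was higher and 1 lower. Without the pair term no nitrate gene was called. Iron shortage genes were higher in 5 of 17 and lower in 2. The bHLH genes BHLH38, BHLH39 and BHLH101, known regulators of iron uptake, stood at 2.03, 2.02 and 1.58 from levels below 3 CPM, and the iron store genes FER1 and FER3 at -0.50 and -0.27. None of these iron genes was called without the pair term. The cytokinin list had 3 lower of 15, the response genes ARR4 and ARR5 and the synthesis gene IPT3, and none higher. Of this list, 1 was lower with replicates 1 and 2 summed, and none was called without the pair term. Of 10 morning clock genes tested, 2 (RVE1 and RVE2) were higher and 1 (LHY) was lower, with a median of 0.02. Of 13 evening clock genes, 3 were higher and none was lower, with a median of 0.05. LHY and the evening gene PRR5 stood at -0.27 ± 0.04 and 0.37 ± 0.07 (edgeR, adjusted p = 0.00013 and 0.0017). Neither was called without the pair term.

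The direction after excision was compared with that before excision, in 6 libraries that the comparison did not use, in a fit of all 30 libraries. Of the 1469 genes called higher, 67.8% were also above 0 at 0 h, against 52.4% of all genes tested, and 214 were called higher at 0 h as well (background 7.04%). Of the 1242 called lower, 66.3% were below 0, against 47.6%, and 174 were called lower (background 3.67%). The other direction was called at 0 h for 20 and 44 genes. Late anthocyanin genes had a median of 1.95 at 0 h, aliphatic glucosinolate genes -0.61, sulfur shortage genes 0.54 and jasmonate genes 0.64. At 0 h, 2 of 15 late anthocyanin, 5 of 14 sulfur shortage and 11 of 30 jasmonate genes were called higher, and none lower. Of 20 aliphatic glucosinolate genes, 3 were called lower and 1 higher at that time. Heat shock genes had a median of 1.63 at 0 h, with 11 of 13 called higher, and of 0.08 after excision, and DNA replication genes of 0.44 and -0.03. The difference after excision departed from that at 0 h for 1584 of 21472 genes (7.38%), of which 488 (2.27%) were relatively higher after excision and 1096 (5.1%) lower.

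**Figure D5:**
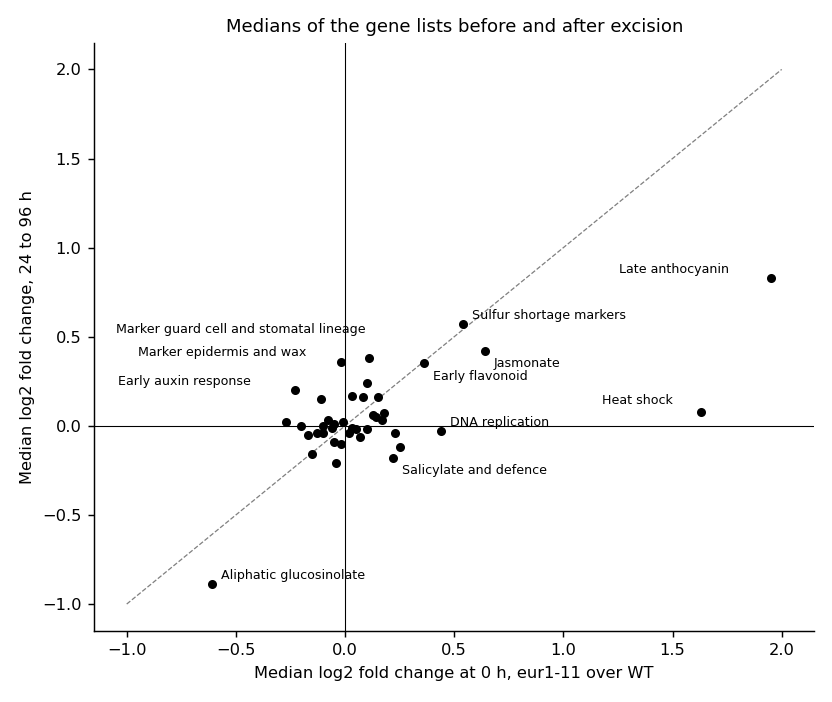
Each point is 1 of 41 gene lists, with its median log2 fold change of eur1-11 over WT at 0 h on the horizontal axis and from 24 to 96 h on the vertical axis, and the dashed line marks equal values. Aliphatic glucosinolate genes (-0.61 and -0.89) and sulfur shortage genes (0.54 and 0.57) lie near the line, and heat shock genes (1.63 and 0.08) far below it.

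The pairs numbered 3 formed a second set of libraries. When pairs 1 and 2 were fitted alone, 1459 genes were called higher and 1041 lower. In the 4 pairs numbered 3, 80.6% of the former were also above 0 (50.3% of all genes) and 80.0% of the latter below (49.7%). Called in both sets were 81 genes in the higher direction, which is 5.55% of the calls of pairs 1 and 2 and 68.1% of the 119 calls of pairs 3, and 67 in the lower direction (6.44% and 62.6% of 107). Called in opposite directions were 2 genes. In all, 406 genes (248 higher and 158 lower) were called the same way under each of 18 alternative settings that kept more than the pairs numbered 3. MAF5, LSU1, SDI1, BCAT4, CYP79F1, MAM1, LDOX, UGT79B1, LOX2, SUS4, PIN4, AT2G01422 and EAR1 were among them.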

How the data were processed

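Per the study's methods, the authors ran FastQC on the reads, used STAR against TAIR10 and HTSeq for counting per gene, and deposited raw counts of 30 libraries in 1 table. Tool versions, the annotation release and strand are not given in the sources used here, so overlapping genes are uncertain. Reads on no gene (3.773 to 6.756%) and ambiguous reads (2.429 to 2.936%) were left out. Columns were matched by sample title. Names, classes and positions came from RefSeq for TAIR10.1, which held 97.7% of the table's genes. Genes were tested with edgeR 4.0.16 (R 4.3.3) by quasi-likelihood F tests with TMM factors, filterByExpr and 12 pair terms, and p-values were adjusted by Benjamini-Hochberg and called under 0.05. The SE was obtained by dividing the absolute log2 fold change by the root of F. CPM values carry the TMM factors, except that the pseudogene sums, the 18S locus and the loci with 0 counts in WT are in CPM of total gene counts. Deviations of equal-numbered libraries correlated with a mean r of 0.539 (12 of 12 over 0.1), and replicates 1 and 2 could not be told apart by this (mean r 0.487). On simulated data of the genotype comparison, 94, 68, 78 and 96% of genes with log2 changes of -1, -0.5, 0.5 and 1 were recovered, with 6 false calls in 21228 genes. The simulated libraries took their dispersions from this same fit, and replicates 1 and 2 were made no closer to each other than to replicate 3. The simulation checks the code and gives no rate of false calls for the data.

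The comparison, the 41 lists (768 members, after 36 whose name and identifier did not match were dropped) and the naming rule were chosen with earlier results of these data known, and the motifs after the results. The rule named EAR1, ORE1, YUC8, YUC9, PIN2 and WOX11. It also took 8 called genes by fold in each direction with at least 5 CPM and 12 equal pairs, the 5 smallest p in each direction, up to 4 called members per list and 4 from each further test. Other members are given as list values. Alternatives were other scalings (DESeq2 1.42.0 included), filters, pair terms, a DESeq2 test, and leaving out replicates or times. The values of 1 list member are not reported here.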

Additional observations from a re-analysis of the deposited data

Results flagged for a closer look

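The difference between genotypes varied from 24 to 96 h for 6 genes (0.0283%; edgeR, with 2223 at an unadjusted p under 0.05 and 267 called by DESeq2). AT3G20370, a TRAF-like gene, had log2 fold changes of 2.07, 1.1, -0.01 and -0.03 at 24, 48, 72 and 96 h (edgeR, adjusted p = 0.0273 for the change), and its relative AT5G26280 had 1.36, 0.47, -0.33 and -1.07 (edgeR, adjusted p = 0.0273). PYK10, a glucosidase of ER bodies, had 1.83, 0.88, 0.30 and 0.05 (edgeR, adjusted p = 0.0329). The number fell to 0 without replicate 1 or without replicate 2 and was 1712 without replicate 3.

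The difference after excision departed from that at 0 h for 1584 genes (7.38%). For AT1G75860 the log2 fold change was 1.24 before excision and -0.02 afterwards, a departure of -1.26 (edgeR, adjusted p = 5e-07). BAG6, a co-chaperone gene, had 1.66 and 0.14 (departure -1.53), AT1G77680, a ribonuclease family gene, 1.34 and 0.14 (departure -1.21), and JAR1, which joins jasmonate to isoleucine, 1.11 and -0.15 (departure -1.27).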

How the results depend on the processing

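Genes called after excision numbered 2711 (1469 higher, 1242 lower). Without the replicate block for pairs they numbered 863 (529 and 334), with a block for the replicate number only 1517 (827 and 690), with replicates 1 and 2 summed 1365 (766 and 599), without 24 h 1709 (947 and 762), without 72 h 1213 (676 and 537), and in the pairs numbered 3 alone 226 (119 and 107). Without 96 h 804 were lower. Total-count scaling left 826 lower genes, and the share of calls that were higher was 67.9% in place of 54.2%. Leaving out 1 replicate number gave 975 to 2539 genes (555 to 1497 higher and 420 to 1042 lower). Changes over time were called for 6 genes, for 0 without the replicate block, with the block by number or with replicates 1 and 2 summed, for 267 by DESeq2, and for 0 to 1712 with 1 replicate number left out. Departures from 0 h were called for 1584 genes, for 137 without the replicate block, 221 with the block by number, 2508 with total-count scaling (10.2% higher in place of 30.8%), 640 with replicates 1 and 2 summed, and 178 to 901 with 1 replicate number left out. Upper-quartile scaling, DESeq2 size factors and the DESeq2 test gave 41.6, 39.3 and 41.8% higher. The cause was not tested for any of these. Of 134 named genes called, 54 kept their call under each alternative but the pairs numbered 3 alone, and SQD2 reversed there, to 0.01. Reversals among genes not called were ORE1 (0.01 with total-count scaling, -0.08 to 0.08 with 1 replicate number left out, 0.04 without 24 h, 0.09 without 48 h), YUC8 (-0.04 without the replicate block, -0.17 to 0.38 with 1 replicate number left out, -0.06 with replicates 1 and 2 summed, -0.14 without 96 h, -0.52 in the pairs numbered 3), AT5G26280 (-0.01 to 0.05 with 1 replicate number left out, -0.31 without 24 h, -0.17 without 48 h) and AT1G75860 (0.01 with total-count scaling, 0.03 without 48 h).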
